A study of Mus musculus with 45 samples.

Results

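A set of 10 genes of eicosanoid synthesis and prostaglandin sensing was followed through the polarization of bone marrow-derived macrophages, chosen by symbol as 10 of the 29307 genes in the count table. The members are the phospholipase *Pla2g4a*, the cyclooxygenases *Ptgs1* and *Ptgs2*, the prostanoid synthases *Ptges*, *Tbxas1* and *Hpgds*, the 5-lipoxygenase genes *Alox5* and *Alox5ap*, and the prostaglandin E2 receptors *Ptger2* and *Ptger4*. All 10 were also among the 11900 genes of the deposited CPM table, and all 10 passed the filter on low counts that left 12905 genes.

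Macrophages were grown from the bone marrow of C57BL/6N mice aged 6 to 10 weeks and cultured with M-CSF for 6 days. They were then left unstimulated (M0), polarized with IFN-γ and LPS (M1) or polarized with IL-4 (M2), and sampled at a single time point. The mice carried 1 of 3 alleles of *Famin*, a macrophage purine enzyme gene listed under the symbol *Lacc1*: p.254I, p.254V, which raises disease risk in people, or p.284R, which causes an inflammatory disease inherited through a single gene. Poly(A) RNA was sequenced in 45 libraries, 5 in each of the 9 groups, and libraries with the same genotype and number were taken as the 3 cultures of a single mouse. The alleles are present in every cell of these mice, all groups share the strain and the culture, and no wild-type or *Famin* null macrophages are among the libraries. The study states that C57BL/6 mice themselves express the p.254V form.

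Eicosanoids are short-lived lipid mediators made from arachidonic acid. Cytosolic phospholipase A2, encoded by *Pla2g4a*, frees the acid from membranes, and the cyclooxygenases turn it into prostaglandin H2, from which terminal synthases make prostaglandin E2 (*Ptges*), thromboxane A2 (*Tbxas1*) or prostaglandin D2 (*Hpgds*). In the other branch 5-lipoxygenase (*Alox5*), helped by its activating protein (*Alox5ap*), starts leukotriene synthesis. *Ptgs1* is usually described as the constitutive and *Ptgs2* as the inducible cyclooxygenase, and the prostaglandin E2 receptors EP2 (*Ptger2*) and EP4 (*Ptger4*) raise cyclic AMP, through which prostaglandin E2 restrains macrophage activation.

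Total counts per library ranged from 17239009 to 43740283, so that 1 CPM, a read count scaled to the size of the library, stood for 17.2 to 43.7 reads. CPM values here are on TMM library sizes, a scaling that sets most genes equal between libraries. The markers *Nos2* and *Arg1* followed the polarization labels. *Nos2* averaged 0.0316 CPM in M0, 37.6 CPM in M1 and 0.286 CPM in M2, and *Arg1* averaged 0.315, 3.32 and 1034 CPM. Of the 6 listed M1 markers, *Cxcl9*, *Cxcl10* and *Tnf* also had their highest mean in M1. *Il12b* and *Il6* were barely detected there, at means of 0.0876 and 0.0936 CPM. In the p.254I M1 library numbered 5, *Arg1* reached 40.8 CPM and *Retnla* 49.1 CPM, while the other M1 libraries held at most 0.912 CPM of *Arg1* and 0.249 CPM of *Retnla*. Leaving out that mouse changed no call of a member in M1 against M0. In M1 against M2 the members called were 7 to 9 over all mice left out singly. All 8 macrophage markers were present in every polarization. Mast cell and basophil genes, which matter here since mast cells are rich in *Hpgds*, summed to between 0.659 and 3.45 CPM over 9 genes, mostly *Hdc* and *Gata2*, and 2 of them, *Mcpt4* and *Tpsb2*, were at 0 in every library. Neutrophil genes, of a cell rich in *Alox5* and *Alox5ap*, summed over 8 genes to 26.4 to 283.7 CPM in M0, 40.9 to 135 CPM in M1 and 16.1 to 73.4 CPM in M2. Platelets are rich in *Ptgs1* and *Tbxas1*, and the list of 5 platelet genes summed to 214 to 315 CPM in M0, 25.1 to 49.0 CPM in M1 and 85.2 to 188 CPM in M2. Most of that was *Pf4*, whereas *Gp9* stayed at or under 0.0574 CPM. The lists for dendritic cells, lymphocytes and fibroblasts or endothelium summed to at most 12.7, 0.548 and 53.2 CPM in any library. The part of these cell types in the results was not tested, and in such bulk RNA fewer cells of a type and less RNA per cell cannot be told apart.

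The sequences before the start sites of 3 members are shown first, because these genes moved differently under the same stimuli. *Ptgs2* and *Ptgs1* encode enzymes for the same reaction, yet *Ptgs2* was much higher and *Ptgs1* lower in M1 than in M0, and *Ptges* encodes the enzyme that follows them on the way to prostaglandin E2. Each line holds the 250 bases before the RefSeq start in GRCm38.p6, read 5′ to 3′ on the strand of the gene, and capitals mark a matched motif. They lie at chr1:150099781-150100030 (plus strand) for *Ptgs2*, chr2:36230176-36230425 (plus strand) for *Ptgs1* and chr2:30903298-30903547 (minus strand) for *Ptges*.
Ptgs2: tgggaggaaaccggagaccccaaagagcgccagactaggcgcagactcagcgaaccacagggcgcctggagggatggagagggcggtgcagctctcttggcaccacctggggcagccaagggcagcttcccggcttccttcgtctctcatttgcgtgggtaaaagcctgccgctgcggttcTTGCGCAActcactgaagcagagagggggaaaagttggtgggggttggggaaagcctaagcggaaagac
Ptgs1: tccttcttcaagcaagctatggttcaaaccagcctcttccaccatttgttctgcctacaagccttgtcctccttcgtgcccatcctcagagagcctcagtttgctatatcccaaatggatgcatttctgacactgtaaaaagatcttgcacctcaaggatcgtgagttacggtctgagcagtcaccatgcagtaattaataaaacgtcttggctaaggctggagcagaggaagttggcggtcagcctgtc
Ptges: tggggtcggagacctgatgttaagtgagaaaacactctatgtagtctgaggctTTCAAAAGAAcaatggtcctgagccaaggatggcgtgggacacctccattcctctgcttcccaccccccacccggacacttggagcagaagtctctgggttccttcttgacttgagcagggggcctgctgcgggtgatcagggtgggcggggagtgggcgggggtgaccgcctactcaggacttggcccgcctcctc

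Motifs were searched on both strands of 300 bases, from 250 before to 50 after the start, in 32851 promoters, of which 9 members had an entry. The C/EBP motif TTGCNNAA was found in 10.8% of all promoters and in those of *Ptgs2* (positions -69 to -62 from the start, in capitals), *Hpgds* and *Ptger2*. The STAT6 motif TTCNNNNGAA, found in 6.95% of promoters, was found in those of *Ptges* (positions -197 to -188, in capitals) and *Tbxas1*. *Ptgs2* alone among the members held the cyclic AMP response element core ACGTCA, which 7.51% of promoters hold, and the E-box CACGTG, which 7.15% hold. These 2 matches overlap, at bases 13 to 18 and 17 to 22 after the start. No member held the NF-kB consensus (4.51% of promoters), which says only that these letters were not in these windows. A match is a description of sequence and not a binding site.

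Polarization changed 9 of the 10 members in each of the 3 comparisons, where changed means a Benjamini-Hochberg adjusted p under 0.05 in edgeR's quasi-likelihood test over all 12905 genes, averaged over the genotypes. In M1 against M0 these were 4 higher and 5 lower, beside 77.3% of all genes called (37.0% higher and 40.3% lower). In M2 against M0 they were 5 higher and 4 lower, beside 76.4% of all genes (36.8% and 39.6%). In M1 against M2 they were 6 higher and 3 lower, beside 79.1% of all genes (39.0% and 40.1%). The counts are thus near what polarization did to any gene. The median log2 fold change of the members was -0.31 in M1 and 0.24 in M2 against M0, where that of all genes was -0.03 in both, and 0.50 in M1 against M2, where that of all genes was -0.01. Both comparisons with M0 share the M0 libraries.

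**Figure D1:**
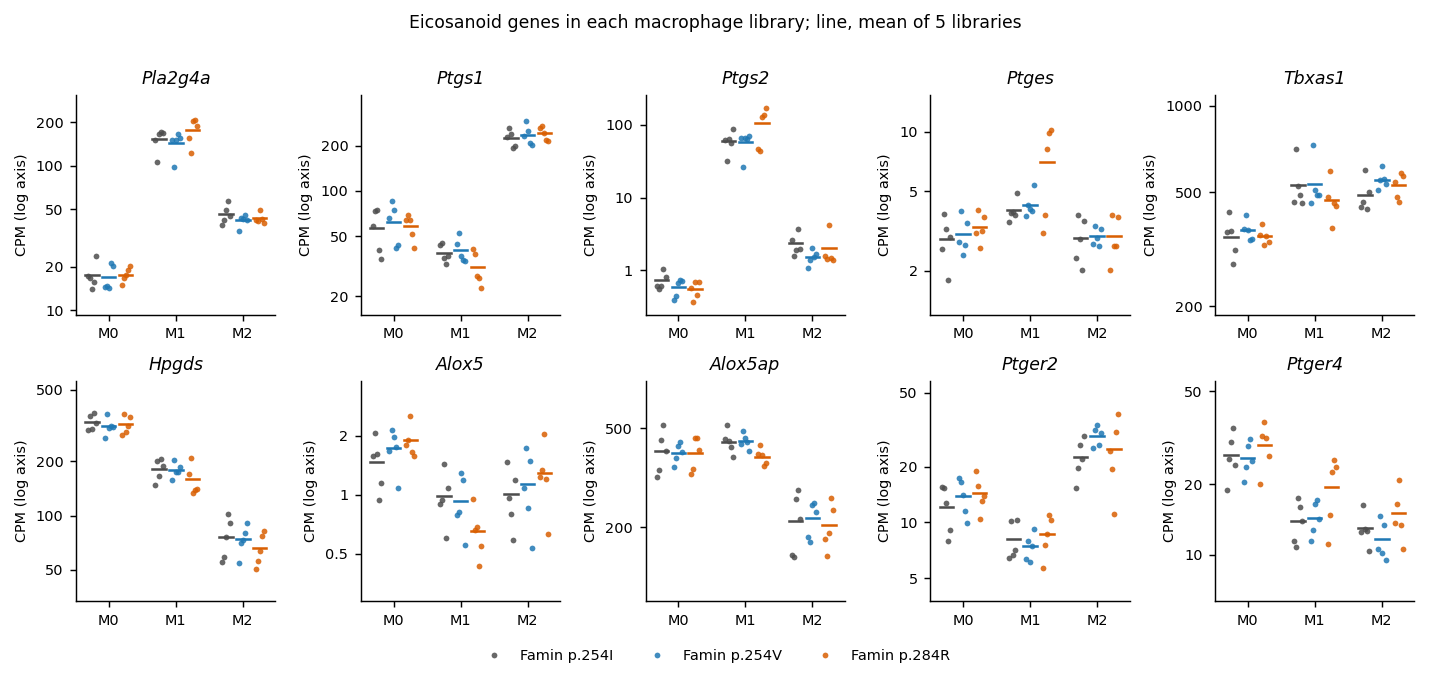
Level of each member in every library (vertical log axis, CPM on TMM library sizes) by polarization, with points for libraries coloured by *Famin* genotype and lines for the mean of 5. *Ptgs2* is at most 1.06 CPM in the M0 libraries and between 26.1 and 172 CPM in M1, whereas *Ptgs1* is highest in M2, at 192 to 289.7 CPM.

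*Pla2g4a* (ENSMUSG00000056220, chr1:149829618-149961290, minus strand), encoding a phospholipase that frees arachidonic acid, rose under both stimuli and most in M1. Over 15 libraries its lowest, median and highest levels were 14.0, 16.7 and 23.8 CPM in M0, 97.2, 156 and 206 CPM in M1, and 35.6, 42.5 and 56.7 CPM in M2. The 3 polarizations did not overlap, in the order M0, M2, M1. The level was 9.01-fold higher in M1 than in M0 (log2 3.17, SE 0.09, adjusted p = 5.6e-29) and 2.52-fold higher in M2 (log2 1.33, SE 0.09, adjusted p = 9.0e-17). M1 exceeded M2 by 3.58-fold (adjusted p = 5.2e-22).

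The cyclooxygenases parted. *Ptgs2* (ENSMUSG00000032487, chr1:150100031-150108227, plus strand) had lowest, median and highest levels of 0.369, 0.611 and 1.06 CPM in M0, 26.1, 63.9 and 172 CPM in M1, and 1.08, 1.58 and 4.22 CPM in M2. No library of any polarization overlapped with those of another, but M0 and M2 nearly met, and their separation depended on the TMM scaling. Without it the p.254I M0 library numbered 4 held 1.09 CPM, from 27 reads. That lay above the p.254V M2 library numbered 1, at 1.06 CPM from 23 reads. *Ptgs2* was 114-fold higher in M1 than in M0 (log2 6.84, SE 0.24, adjusted p = 4.9e-26), the 38th largest absolute change of the 12905 genes. IL-4 raised it too, 3.14-fold (log2 1.65, SE 0.28, adjusted p = 1.3e-06), to levels that were 36.4-fold below M1.

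*Ptgs1* (ENSMUSG00000047250, chr2:36230426-36252272, plus strand) was lower in M1, where *Ptgs2* was higher, and like *Ptgs2* it was higher in M2. Its lowest, median and highest levels were 35.5, 64.0 and 86.1 CPM in M0, 22.6, 36.8 and 52.3 CPM in M1, and 192, 231 and 289.7 CPM in M2. It fell 1.61-fold in M1 (log2 -0.69, SE 0.11, adjusted p = 5.8e-07), where the libraries overlapped with M0 but 14 of 15 mice were lower. It rose 3.95-fold in M2 (log2 1.98, SE 0.11, adjusted p = 8.7e-19), where no library overlapped with M0 or M1. M2 exceeded M1 by 6.38-fold (adjusted p = 3.6e-23).

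Different genes were set side by side per kilobase of exon, counting all annotated exons of a gene. The transcripts in use may be shorter, so such ratios and ranks depend on that choice of length. The ratio of *Ptgs2* to *Ptgs1* was 0.00767 (median of 15, 0.00443 to 0.0220) in M0, 1.51 (0.423 to 6.45) in M1 and 0.00628 (0.00398 to 0.0165) in M2. *Ptgs2* thus exceeded *Ptgs1* in 11 of 15 M1 libraries and in 0 of 15 of M0 and of M2. The 4 M1 libraries with a ratio under 1 were the 3 numbered 2 and the p.284R library numbered 1. In M2 *Ptgs2* and *Ptgs1* both rose, so the ratio stood near that of M0.

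**Figure D2:**
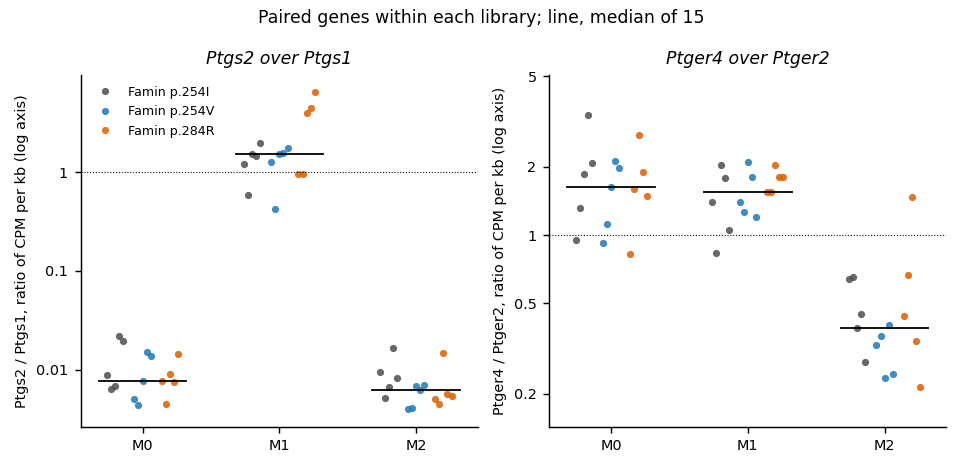
Ratio of CPM per kilobase of exon within each library (vertical log axis) for *Ptgs2* over *Ptgs1* and for *Ptger4* over *Ptger2*, with points coloured by *Famin* genotype, lines for the median of 15 libraries and a dotted line at 1. The cyclooxygenase ratio has medians of 0.00767, 1.51 and 0.00628 in M0, M1 and M2, and the receptor ratio 1.63, 1.54 and 0.388.

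Of the terminal synthases, *Ptges* was higher in M1, *Tbxas1* was higher under both stimuli, and *Hpgds* was lower under both. *Ptges* (ENSMUSG00000050737, chr2:30889471-30929863, minus strand), the inducible prostaglandin E synthase, had lowest, median and highest levels of 1.80, 3.11 and 4.03 CPM in M0, 3.09, 3.97 and 10.2 CPM in M1, and 2.01, 2.89 and 3.82 CPM in M2. The polarizations overlapped, and it was higher in M1 than in M0 in 13 of 15 mice. The change was 1.60-fold (log2 0.68, SE 0.14, adjusted p = 2.1e-05) in M1, and in M2 its log2 difference was -0.07 (SE 0.14, adjusted p = 0.67). *Ptges* was also 1.67-fold higher in M1 than in M2 (adjusted p = 5.1e-06), in 14 of 15 mice. Its span overlaps that of *Gm13400* on the same strand.

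*Tbxas1* (ENSMUSG00000029925, chr6:38875404-39084585, plus strand), thromboxane A synthase, had lowest, median and highest levels of 279.8, 355 and 427 CPM in M0, 374, 487 and 728 CPM in M1, and 437, 533 and 614 CPM in M2. It rose 1.43-fold in M1 (log2 0.52, SE 0.07, adjusted p = 1.5e-08) and 1.47-fold in M2 (log2 0.55, SE 0.07, adjusted p = 4.4e-09), in 15 of 15 mice each time. M1 and M2 overlapped widely, with a log2 difference of -0.03 (SE 0.07, adjusted p = 0.67). Its long span overlaps *Gm23010* on the same strand and *Hipk2* on the other, and whether the counting used strand is not stated.

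*Hpgds* (ENSMUSG00000029919, chr6:65117293-65144908, minus strand), the hematopoietic prostaglandin D synthase, was lower under both stimuli and, of the members, fell most in M2. Its lowest, median and highest levels were 269, 316 and 372 CPM in M0, 134, 175 and 208 CPM in M1, and 50.4, 73.1 and 102 CPM in M2. The 3 polarizations did not overlap, in the order M2, M1, M0. It fell 1.86-fold in M1 (log2 -0.90, SE 0.08, adjusted p = 1.3e-12) and 4.47-fold in M2 (log2 -2.16, SE 0.09, adjusted p = 1.0e-23). The list of 9 mast cell and basophil genes summed to 0.659 to 1.55 CPM in M0, 2.15 to 3.45 CPM in M1 and 1.04 to 3.14 CPM in M2, and its part in these values was not tested.

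In the 5-lipoxygenase branch both genes were lower in M2, and *Alox5* was also lower in M1. *Alox5* (ENSMUSG00000025701, chr6:116410077-116461178, minus strand) was, per kilobase of exon, the least abundant member in M1 and M2. It had lowest, median and highest levels of 0.939, 1.67 and 2.54 CPM in M0, 0.431, 0.814 and 1.43 CPM in M1, and 0.532, 1.19 and 2.05 CPM in M2. It fell 2.0-fold in M1 (log2 -1.0, SE 0.17, adjusted p = 1.7e-06), in 15 of 15 mice, and 1.49-fold in M2 (log2 -0.57, SE 0.17, adjusted p = 0.0022), in 14 of 15. The M1 level was 1.34-fold under that of M2 (adjusted p = 0.026), lower in 11 of 15 mice, a call that was lost in limma-voom (adjusted p = 0.068).

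*Alox5ap* (ENSMUSG00000060063, chr5:149264767-149288153, plus strand), which presents arachidonic acid to 5-lipoxygenase, had lowest, median and highest levels of 320.0, 404 and 517 CPM in M0, 353, 427 and 516 CPM in M1, and 152, 217 and 281 CPM in M2. In M1 it was higher in 9 mice and lower in 6, and the log2 difference was 0.08 (SE 0.08, adjusted p = 0.41). In M2 it fell 1.90-fold (log2 -0.93, SE 0.09, adjusted p = 1.3e-12), and all M2 libraries lay below all M0 and M1 libraries. Per kilobase of exon it was the most abundant member in every polarization, at 283 CPM per kilobase (SD 40.5, n = 15) in M0, 299 (SD 31.5) in M1 and 149 (SD 31.2) in M2. The corresponding levels of *Alox5* were 0.414 (SD 0.103), 0.209 (SD 0.0715) and 0.279 (SD 0.106), so that the transcript of the helper protein exceeded that of the enzyme by a median ratio of 619.8 in M0, 1590.2 in M1 and 488 in M2.

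The prostaglandin E2 receptors both fell in M1 and parted in M2. *Ptger2* (ENSMUSG00000037759, chr14:44988195-45003820, plus strand), encoding EP2, had lowest, median and highest levels of 7.98, 13.9 and 18.9 CPM in M0, 5.66, 7.52 and 11 CPM in M1, and 11.1, 26.0 and 38.6 CPM in M2. It fell 1.67-fold in M1 (log2 -0.74, SE 0.14, adjusted p = 7.1e-06) and rose 1.89-fold in M2 (log2 0.92, SE 0.13, adjusted p = 7.9e-08), each in 14 of 15 mice. M2 lay above M1 without overlap, by 3.16-fold (adjusted p = 3.6e-14).

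*Ptger4* (ENSMUSG00000039942, chr15:5206661-5244187, minus strand), encoding EP4, had lowest, median and highest levels of 18.9, 26.3 and 36.8 CPM in M0, 10.8, 14.8 and 25.3 CPM in M1, and 9.54, 12.9 and 20.8 CPM in M2. It fell 1.73-fold in M1 (log2 -0.79, SE 0.11, adjusted p = 4.9e-08) and 2.08-fold in M2 (log2 -1.05, SE 0.11, adjusted p = 8.5e-11), in 15 of 15 mice under each stimulus. M1 exceeded M2 by 1.2-fold (adjusted p = 0.035) in 10 of 15 mice, and this call was lost in limma-voom (adjusted p = 0.071). Per kilobase *Ptger4* exceeded *Ptger2* in 12 of 15 M0 and 14 of 15 M1 libraries but in 1 of 15 M2 libraries, the p.284R library numbered 3. The median ratio of *Ptger4* to *Ptger2* was 1.63 in M0, 1.54 in M1 and 0.388 in M2.

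Libraries of 3 members did not overlap between M1 and M0 (*Pla2g4a*, *Ptgs2* and *Hpgds*), beside 28.6% of all genes. Between M2 and M0 they were 6 (*Pla2g4a*, *Ptgs1*, *Ptgs2*, *Tbxas1*, *Hpgds* and *Alox5ap*), beside 23.4% of all genes. Between M1 and M2 they were also 6 (*Pla2g4a*, *Ptgs1*, *Ptgs2*, *Hpgds*, *Alox5ap* and *Ptger2*), beside 35.7% of all genes. These counts are on TMM library sizes. Without that scaling *Ptgs2* and *Tbxas1* overlapped between M2 and M0, and the share of all genes was not counted. *Tbxas1* was then 438 CPM in the p.254I M0 library numbered 2 and 426 CPM in the p.254I M2 library numbered 1.

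**Figure D3:**
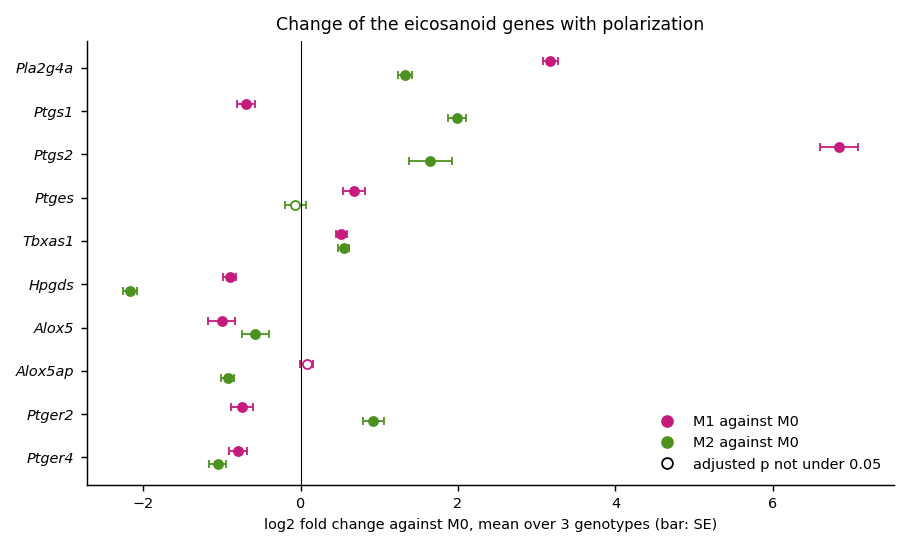
Log2 fold change of each member against M0 (horizontal axis) for M1 and M2, as the mean over 3 *Famin* genotypes with SE as bars, and open symbols where the adjusted p was not under 0.05. *Ptgs2* moved farthest in M1, by 6.84, and *Ptgs1* and *Ptger2* lie on opposite sides of 0 in M1 and M2.

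On the scale of CPM per kilobase, *Ptgs2* stood last of the 10 members in M0 at 0.137 (SD 0.0387, n = 15), the fifth in M1 at 16.3 (SD 8.93) and the ninth in M2 at 0.430 (SD 0.195). In M1 it came after *Alox5ap*, *Tbxas1* at 56.1 (SD 11), *Hpgds* at 26.9 (SD 3.93) and *Pla2g4a* at 24.6 (SD 4.88). The ranges of *Ptgs2*, *Pla2g4a* and *Hpgds* overlapped there, so the order of these neighbours does not exceed their spread. *Ptgs1* stood the second in M2 at 60.2 (SD 7.36), beside *Tbxas1* at 57.4 (SD 6.28), and these also overlapped. *Ptges* stayed under 2.6 CPM per kilobase in every library, so that *Tbxas1* exceeded it by a median ratio of 48.7 in M0, 53.6 in M1 and 80.3 in M2. *Hpgds* exceeded *Ptges* by a median ratio of 59.0 in M0, 25.8 in M1 and 15.2 in M2. *Ptges* is not the only prostaglandin E synthase gene. Outside the members, *Ptges2* averaged 14.2, 21.3 and 31.4 CPM in M0, M1 and M2, and *Ptges3* 22.3, 28.0 and 29.2 CPM. Both were called higher in M1 and in M2 than in M0.

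Each genotype taken alone gave a similar picture. In M1 against M0, 7 members were called within p.254I (60.0% of all genes), 8 within p.254V (62.5%) and 9 within p.284R (63.4%). In M2 against M0 they were 8 within p.254I (60.6%), 8 within p.254V (57.4%) and 8 within p.284R (59.9%). *Ptges* and *Alox5* account for the differences in M1. The M1 change of *Ptges* was 0.47 on the log2 scale in p.254I (SE 0.24, adjusted p = 0.083), 0.48 in p.254V (SE 0.23, adjusted p = 0.070) and 1.08 in p.284R (SE 0.23, adjusted p = 0.00010). That of *Alox5* was -0.57 in p.254I (SE 0.29, adjusted p = 0.089), -0.89 in p.254V (SE 0.29, adjusted p = 0.0082) and -1.54 in p.284R (SE 0.31, adjusted p = 3.2e-05). The test of the difference between p.284R and p.254I itself gave 0.61 for *Ptges* (SE 0.33, adjusted p = 1.00) and -0.97 for *Alox5* (SE 0.42, unadjusted p = 0.028, adjusted p = 1.00), so neither is shown to differ.

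The *Famin* alleles were compared to ask whether they shift this program. No member was called in any of 12 genotype comparisons or 6 interaction tests in edgeR, nor in limma-voom or the DESeq2 Wald test. The share of all genes called was as small. For p.284R against p.254I it was 0.0155% over the mean of the polarizations, 0% within M0, 0.263% within M1 and 0.00775% within M2. For p.254V against p.254I it was 0.0155% over the mean and 0% within each polarization, and for p.284R against p.254V it was 0.0775% within M1 and 0% otherwise. All interactions called 0% of genes. At an unadjusted p under 0.05 there were 2 members for p.284R against p.254I over the mean (*Ptges* and *Ptger4*), beside 4.38% of all genes, and 3 within M1 (*Ptgs2*, *Ptges* and *Ptger4*), beside 6.70%. For p.284R against p.254V there were 1 over the mean (*Ptger4*), beside 4.70%, and the same 3 within M1, beside 6.19%. For the change of p.284R against p.254I from M0 to M1 there was 1 (*Alox5*), beside 2.76%. In the other 13 comparisons there were 0 members, beside 0.411% to 2.55% of all genes.

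Averaged over M0, M1 and M2, the 95% intervals of the log2 difference between p.254V and p.254I reached from -0.26 to 0.09 for *Pla2g4a*, from -0.05 to 0.23 for *Tbxas1* and from -0.17 to 0.18 for *Alox5ap*. The interval of *Ptgs2* was wider, from -0.81 to 0.20. For p.284R against p.254I the interval was -0.14 to 0.21 for *Pla2g4a*, -0.45 to 0.58 for *Ptgs2*, 0.07 to 0.63 for *Ptges* and 0.05 to 0.51 for *Ptger4*. An interval that holds 0 does not show that the genotypes were alike, and that of *Ptgs2*, a gene at 1.06 CPM or less in M0, leaves room for the largest differences.

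**Figure D4:**
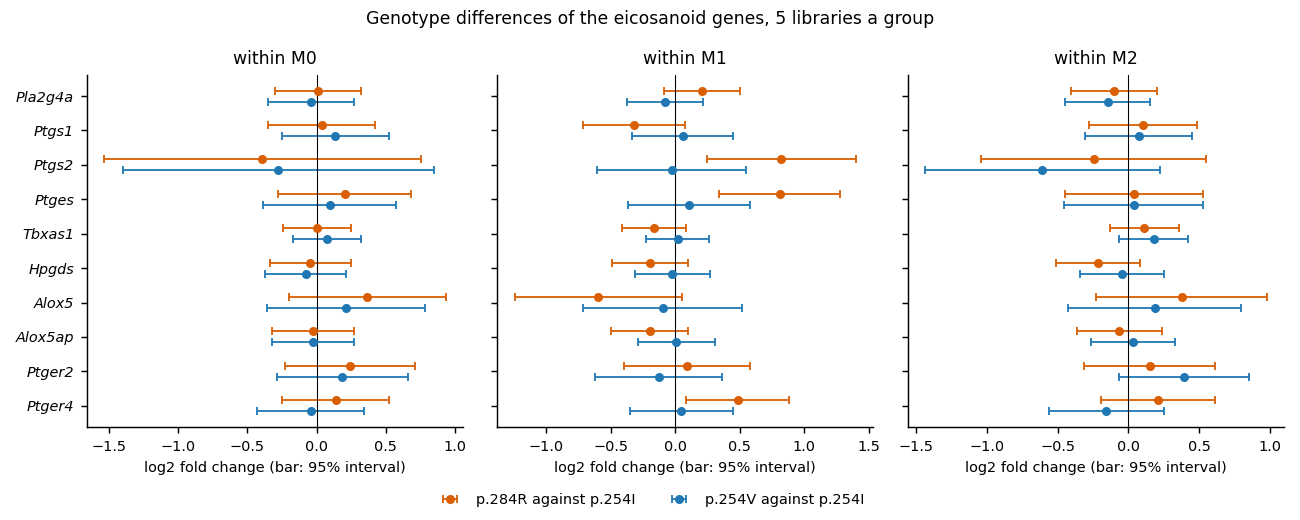
Log2 difference of each member between p.284R or p.254V and p.254I (horizontal axis) within M0, M1 and M2, 5 libraries a group, with 95% intervals as bars. The intervals of *Ptgs2*, *Ptges* and *Ptger4* for p.284R in M1 lie above 0 before adjustment, at 0.24 to 1.4, 0.34 to 1.28 and 0.08 to 0.88.

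The M1 libraries of p.284R held the member differences with the smallest unadjusted p. *Ptgs2* in p.284R M1 libraries 1 to 5 was 46.4, 43.2, 127.6, 138 and 172 CPM, against 61.8, 31.4, 63.4, 55.7 and 86.2 CPM in p.254I and 65.4, 26.1, 66.0, 63.9 and 70.9 CPM in p.254V. Libraries 3 to 5 of p.284R lay above every M1 library of the other genotypes, and libraries 1 and 2 lay within their range. The mean difference from p.254I was 1.77-fold (log2 0.82, SE 0.29, unadjusted p = 0.0065, adjusted p = 0.40) and that from p.254V 1.80-fold (adjusted p = 0.54). *Ptgs2* is also on a list of genes that the study drew from these same libraries, so its difference is not independent evidence of a direction.

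*Ptges* split the same libraries. Its levels in p.284R M1 libraries 1 to 5 were 3.09, 3.82, 8.18, 9.85 and 10.2 CPM, against 3.52, 3.88, 3.93, 3.80 and 4.93 CPM in p.254I and 3.75, 4.29, 4.10, 3.97 and 5.38 CPM in p.254V. Libraries 3 to 5 were again above all others, and library 1 was below all others. The difference from p.254I was 1.75-fold (log2 0.81, SE 0.23, unadjusted p = 0.0011, adjusted p = 0.19) and that from p.254V 1.63-fold (adjusted p = 0.50). Without p.284R mouse 1 or mouse 2 the difference from p.254I was called (log2 1.00 and 0.97, adjusted p = 0.011 and 0.023), as was that from p.254V without mouse 1 (log2 0.90, adjusted p = 0.039). Without mouse 3, 4 or 5 it was between 0.64 and 0.75, with adjusted p of 0.55 and above. With the replicate number as a block, which pairs libraries in M1, the difference from p.254I had an adjusted p of 0.050 and was not called.

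*Ptger4* followed, with 11.2, 14.8, 22.7, 25.3 and 23.7 CPM in p.284R M1 libraries 1 to 5. In p.254I it was 11.5, 10.8, 17.5, 16.1 and 14.0 CPM, and in p.254V 11.5, 12.8, 16.5, 17.2 and 14.3 CPM. The same 3 libraries were above all of the other genotypes. The difference from p.254I was 1.4-fold (log2 0.48, SE 0.20, unadjusted p = 0.019, adjusted p = 0.60).

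*Pla2g4a* stood above, and *Ptgs1* below, all M1 libraries of the other genotypes in libraries 3 to 5 of p.284R as well. *Pla2g4a* was 155, 123, 205, 206 and 187 CPM in p.284R M1 libraries 1 to 5, and at most 170.0 CPM elsewhere in M1. *Ptgs1* was 41.2, 38.0, 27.4, 26.5 and 22.6 CPM, and at least 32.7 CPM elsewhere in M1. Neither difference was called, and no member separated 2 genotypes without overlap. The share of all genes that did was 0.124%, 0.604% and 0.201% in M0, M1 and M2 for p.284R against p.254I. It was 0.132%, 0.240% and 0.333% for p.254V against p.254I and 0.0697%, 0.620% and 0.341% for p.284R against p.254V.

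Other M1 genes moved with this split. *Nos2*, the inducible nitric oxide synthase, was 25.6, 8.60, 81.5, 149 and 131 CPM in p.284R M1 libraries 1 to 5, against 3.01 to 26.0 CPM in p.254I and 4.92 to 20.9 CPM in p.254V. The chemokine gene *Cxcl9* was 5339.9, 4723 and 5125 CPM in libraries 3, 4 and 5, and at most 3659 CPM in any other M1 library. *Lacc1* itself did not follow it, at 396, 263, 218, 584 and 553 CPM in libraries 1 to 5, while p.254I held 486 to 523 CPM and p.254V 533 to 597 CPM. The part of the strength of M1 polarization in the p.284R values was not tested.

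**Figure D5:**
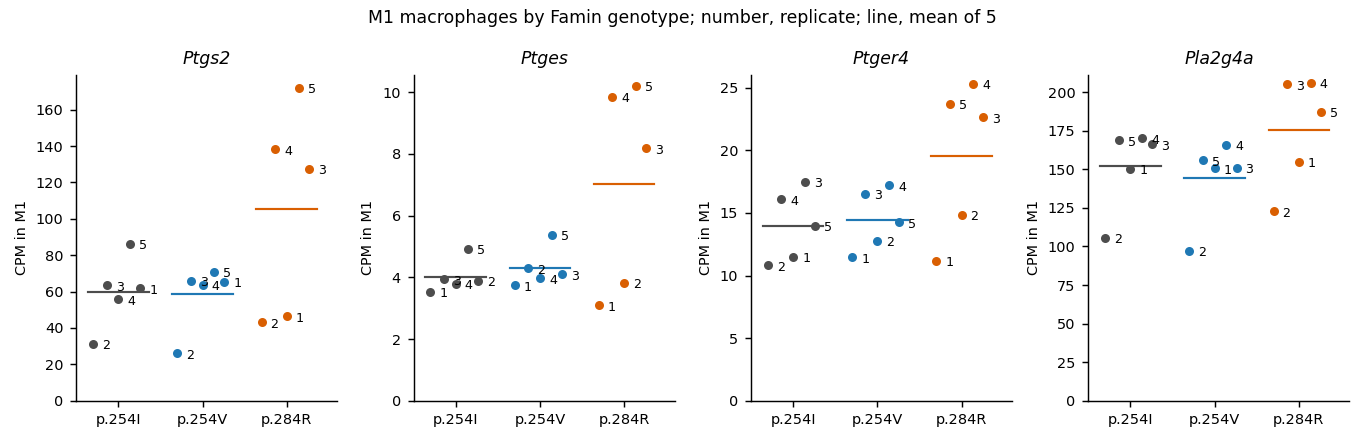
CPM of *Ptgs2*, *Ptges*, *Ptger4* and *Pla2g4a* in the M1 libraries (vertical axis, from 0) by *Famin* genotype, with the replicate number beside each point and lines for the mean of 5. In p.284R the libraries numbered 3 to 5 lie above all libraries of the other genotypes for each of the 4 genes, and those numbered 1 and 2 do not.

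The replicate number also marked a pattern that all 3 genotypes shared. In the M1 libraries numbered 2, *Ptgs2* was 26.1 to 43.2 CPM and *Pla2g4a* 97.2 to 123 CPM, under all other M1 libraries. *Tbxas1* was 589.8 to 728 CPM in these libraries and at most 523 CPM in the others. *Cxcl9* was 979, 1367 and 1777 CPM in the libraries numbered 2 of p.254I, p.254V and p.284R. Low *Cxcl9* was not particular to them. The p.254I M1 library numbered 4 held 1339 CPM, with *Ptgs2* at 55.7 CPM and *Pla2g4a* at 170 CPM. The labels do not say what the number marks.

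Within groups the members moved together or apart. Over the 45 libraries, as deviations of log2 CPM from the 9 group means, *Ptgs2* rose and fell with *Pla2g4a* (Pearson r = 0.72) and *Ptger4* (r = 0.54) and against *Tbxas1* (r = -0.69). *Pla2g4a* moved against *Ptgs1* (r = -0.70) and *Tbxas1* (r = -0.61), and *Hpgds* with *Alox5ap* (r = 0.60). These are descriptions over libraries that share mice and replicate numbers. Without the 5 p.284R M1 libraries (n = 40) the values were 0.69 for *Ptgs2* with *Pla2g4a*, 0.33 with *Ptger4* and -0.73 with *Tbxas1*.

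Outside the members, the genes most like *Ptgs2* over the 45 libraries by log2 CPM were *Serpinb9* (r = 0.99) and *Hrh2* (r = 0.99). By deviations from the group means they were *Serpinb9* (r = 0.86), *Cst7* (r = 0.84), *Nos2* (r = 0.84), *1110002J07Rik* (r = 0.81) and *D130043K22Rik* (r = 0.81). For *Ptges* they were *Sod2* (r = 0.89) and *Gm28100* (r = 0.86), values that were 0.69 and 0.57 without the p.284R M1 libraries. *Pla2g4a* was most like *Abtb2* and *Bak1*, *Ptgs1* like *Ak1* and *Rnf166*, *Hpgds* like *Apobec1* and *Tpd52*, and *Alox5ap* like *Cttnbp2nl* and *Pctp*, each with r of 0.96 or more. *Ptger2* was most like *Snn* and *Iah1* (r = 0.93 each), *Ptger4* like *Siglece* (r = 0.90) and *Smim3* (r = 0.86), *Tbxas1* like *Ttll4* (r = 0.86) and *Oxct1* (r = 0.85), and *Alox5* like *Tmem176b* (r = 0.78) and *Tmem176a* (r = 0.76).

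The rest of the pathway was described by a list of 58 further genes of arachidonate release, prostanoid, lipoxygenase and leukotriene synthesis, breakdown and reception, of which 37 were tested. In M1 against M0, 13 were higher, 18 lower and 6 not called (median log2 fold change -0.16). In M2 against M0, 15 were higher, 9 lower and 13 not called (median -0.04). The shares in each direction over all genes are those given for the members. In M1 the 6 tested genes of leukotriene synthesis were lower in 5 cases and not called in 1, whereas 4 of the 6 tested eicosanoid receptors were higher and 1 lower. In M2 against M0 the same 6 leukotriene genes were lower in 4 cases, higher in 1 and not called in 1. Of the 6 receptors, 3 were higher there, 1 lower and 2 not called.

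Of the 9 tested genes of breakdown and transport, 3 were higher and 6 lower in M1, and 3 were higher, 2 lower and 4 not called in M2. *Hpgd*, encoding the dehydrogenase that inactivates prostaglandin E2, averaged 19.2 CPM in M0, 0.521 CPM in M1 and 1.06 CPM in M2, with log2 changes of -5.25 in M1 and -4.21 in M2 (adjusted p = 6.2e-23 and 1.1e-20). In M1 the other genes that fell most were *Mgll*, a lipase that yields arachidonate, from 11.3 to 1.13 CPM (log2 -3.33, adjusted p = 8.4e-12) and *Ltc4s*, leukotriene C4 synthase, from 2.48 to 0.470 CPM (log2 -2.46, adjusted p = 2.4e-17). Those that rose most there were receptor genes: *Cysltr2*, a cysteinyl leukotriene receptor, from 2.44 to 14.4 CPM (log2 2.56, adjusted p = 2.8e-21), *Ptger3*, encoding EP3, from 0.903 to 2.77 CPM (log2 1.59, adjusted p = 5.6e-08), and *Ltb4r1*, a leukotriene B4 receptor, from 0.885 to 2.53 CPM (log2 1.51, adjusted p = 3.7e-11).

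In M2 the genes that rose most were *Ltb4r1*, from 0.885 to 15 CPM (log2 4.07, adjusted p = 1.5e-24), the secreted phospholipase gene *Pla2g5*, from 0.702 to 5.72 CPM (log2 3.0, adjusted p = 2.1e-18), and *Ptgir*, the prostacyclin receptor gene, from 9.60 to 70.9 CPM (log2 2.88, adjusted p = 9.1e-23). Those that fell most after *Hpgd* were *Mgst2*, a microsomal glutathione transferase able to make leukotriene C4, from 2.57 to 0.904 CPM (log2 -1.51, adjusted p = 1.9e-13), and *Prxl2b*, a prostamide and prostaglandin F synthase, from 25.5 to 10.6 CPM (log2 -1.26, adjusted p = 3.8e-19). *Ptger2* and *Ptgir*, whose receptors both raise cyclic AMP, were thus higher in M2, while *Ptger4* was lower. In genotype comparisons 0 of the 37 genes were called by edgeR, and at an unadjusted p under 0.05 there were at most 6, for p.284R against p.254V within M1, beside 6.19% of all genes.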

How the data were processed

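Bone marrow-derived macrophages were profiled by stranded poly(A) RNA sequencing (single-end reads, TruSeq). The authors deposited raw counts of reads per Ensembl gene without normalization, and CPM for 11900 genes, each a count over the library's total for those genes. Whole reads recovered from the CPM table (tolerance 0.01) equalled the counts for 100.0% of values. The submitters' processing notes name FastQC, Trim Galore, HISAT2 and mm10, whereas the series text names Cutadapt and STAR. The counter, its annotation and its use of strand are not given in the sources used here.

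Groups came from the sample titles. Counts were tested with edgeR 4.0.16 under R 4.3.3 (filterByExpr, 12905 genes, TMM factors 0.939 to 1.10, quasi-likelihood fit over 9 groups, no block), and adjusted p-values (Benjamini-Hochberg over all genes) under 0.05 were called. Intervals of 95% use 36 residual degrees of freedom, are not adjusted and, like the main p-values, take cultures of the same mouse as independent. Alternatives used limma 3.58.1, DESeq2 1.42.0, other filters, blocks, fewer libraries and each mouse left out. The reads recovered from the CPM table and the correlations without the p.284R M1 libraries were added after seeing the data. The fits were tested on simulated counts drawn independently for each library, which cannot show how they treat shared mice or replicate numbers. Identifiers and lengths, the union of a gene's exons, came from GENCODE M21 (29146 identifiers matched), and promoters from RefSeq (GRCm38.p6).

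Libraries that share a number deviated together over 11151 genes, with correlations over 0.1 in 15 of 15 pairs across genotypes in M0 (0.14 to 0.84) and in M1 (0.26 to 0.85), 13 of 15 in M2 (-0.37 to 0.75) and 38 of 45 pairs of the same mouse. The numbers were therefore taken to pair libraries in M0 and M1.

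The members and lists were chosen with earlier results of these data known. All 10 members are named, with, from the wider list, the 3 called genes that rose and the 3 that fell most in M1 and in M2 against M0 among those with a group mean of at least 1 CPM. *Ptges2* and *Ptges3* of that list are named besides, as further prostaglandin E synthase genes. Genes alike are the 2 with the highest correlation to each member (log2 CPM, pseudocount 1) and the 5 with the highest correlation of deviations to *Ptgs2*.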

Additional observations from a re-analysis of the deposited data

Results flagged for a closer look

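Among 90 groups of 5 libraries, 1 for each member in each genotype and polarization, 6 held a library whose gap to its neighbour took most of the group's range by Dixon's test. Chance marks about 1 in 20 groups.

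The M1 libraries numbered 2 gave 4 of these. In p.254V, library 2 held *Ptgs2* at 26.1 CPM, under the 63.9 to 70.9 CPM of the others, and *Pla2g4a* at 97.2 CPM, under 151 to 166 CPM. *Tbxas1* stood above the other libraries in the M1 libraries numbered 2 of p.254I (707 CPM, against 457 to 523 CPM) and of p.254V (728 CPM, against 459 to 508 CPM). *Cxcl9* was low in the same 2 libraries, at 979 and 1367 CPM. It was also low, at 1339 CPM, in the p.254I M1 library numbered 4, which held no flagged value. The part of weaker M1 polarization was not tested.

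The p.284R M2 library numbered 3 gave the other 2. It held *Ptgs2* at 4.22 CPM, above 1.37 to 1.57 CPM in the others, and *Pla2g4a* at 49.5 CPM, above 40.4 to 42.5 CPM. It was also the M2 library with the lowest *Ptger2* (11.1 CPM) and the highest *Ptger4* (20.8 CPM).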

How the results depend on the processing

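The count of members called stayed between 7 and 9 in every polarization comparison under all alternatives and left-out mice. It was 9 in M1 and in M2 against M0 except with a minimum of 10 counts in every library, which removed *Alox5*. In M1 against M2 limma-voom lost *Alox5* and *Ptger4*, and leaving out single mice gave 7 to 9. No alternative reversed a direction. On CPM without TMM scaling, *Ptgs2* and *Tbxas1* no longer separated M2 from M0 without overlap.

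In the genotype comparisons the count was 0 throughout, except 0 to 1 over the left-out mice within M1 for p.284R against p.254I (1 without p.284R replicate 1 and 1 without replicate 2) and for p.284R against p.254V (1 without p.284R replicate 1), the gene being *Ptges*. With the replicate number as a block, which pairs libraries in M1, the adjusted p within M1 for p.284R against p.254I was 0.088 for *Ptgs2*, 0.050 for *Ptges* and 0.18 for *Ptger4*, and the block changed no call of a member.

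Over all genes, the number called within M1 for p.284R against p.254I was 34. It was 64 with the block and in the DESeq2 Wald test, 24 with either other filter, 11 in limma-voom, 7 when limma-voom took each mouse as a random block, 1 with only the libraries compared, and 0 to 109 over the left-out mice, the highest without p.284R replicates 1 (96) and 2 (109) and the lowest without replicates 3 (1), 4 (1) and 5 (0). For p.284R against p.254V it was 10, with 36 under the block, 26 in the DESeq2 Wald test, 4 with no low-count filter, 0 in limma-voom and with only the libraries compared, and 0 to 65 over the left-out mice. For p.284R against p.254I over the mean it was 2, and 1 to 19 elsewhere. Scalings moved the median of all genes by less than 0.021 on the log2 scale.

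Depth limits *Alox5* and, in M0, *Ptgs2*, since 1 CPM is 17.2 to 43.7 reads. Which libraries shared a sequencing lane is not given, nor is what the replicate number marks. The main p-values and intervals measure the spread between libraries within groups, pooled over the 9 groups. They take cultures of the same mouse as independent, although 38 of 45 pairs of the same mouse had correlations over 0.1. Those pairs also share a replicate number. Their median correlation was 0.28, against 0.68 in M0, 0.44 in M1 and 0.38 in M2 for the same number across genotypes. The main polarization tests thus did not use the pairing by mouse, and the main genotype tests did not use that by replicate number. Genotype tests averaged over the polarizations counted each culture of a mouse as a separate replicate.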
